A study of Mus musculus with 12 samples.

Results

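The genes for the receptors of acetylcholine and the monoamines were followed in mouse hippocampal neurons during 15 days in culture. They were picked by gene name from the table that links each array probeset to a gene: every symbol that begins with Chrn, Chrm, Adra or Adrb (apart from the kinases Adrbk1 and Adrbk2), or that consists of Htr or Drd followed by a digit. This gave 42 of the 20358 genes measured, of which 16 encode nicotinic and 5 muscarinic acetylcholine receptors, 14 serotonin receptors, 5 dopamine receptors and 2 adrenergic receptors. Between 0 and 15 days in vitro (DIV), 11 of them rose (16.4% of all genes did) and 3 fell (8.43%). The 42 genes include 16 that were above the background of the arrays at no time (33.9% of all genes). None of the 3 falls was called when the replicate number was left out of the fit. *Htr1d*, 1 of the 3, was above background on no array.

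Hippocampi of RjOrl:SWISS mouse embryos of embryonic days 17.5 to 18.5 were dissociated, and the neurons were grown in Neurobasal medium with 2% B27, with 1 µM cytosine arabinoside (which stops dividing cells) added at 3 DIV. No group was treated or genetically altered, so the groups differ by time in culture and, after 3 DIV, by the exposure to cytosine arabinoside that all later cultures share: 0 DIV, 1 DIV (collected at 20 h), 3, 6, 12 and 15 DIV, each with 2 Affymetrix Mouse Gene ST arrays. Per the methods, the arrays at each time are independent replicas, and the study's model had the date of the experiment as a batch. The labels give no date, so the replicate number was used as the batch. How many embryos went into 1 culture is not given in the sources used here.

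Acetylcholine acts on nicotinic receptors, which are cation channels built from 5 subunits, and on muscarinic receptors, which signal through G proteins. Dopamine, noradrenaline and, apart from the channel formed by HTR3 subunits, serotonin also act on G protein-coupled receptors: those linked to Gs raise cyclic AMP, those linked to Gi lower it, and those linked to Gq activate phospholipase C. In the brain these transmitters reach the hippocampus through fibres of neurons that lie elsewhere, in the septum, the raphe, the locus coeruleus and the midbrain, so the hippocampal cells carry the receptors while most cells that make the transmitters are left behind.

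Each gene has 1 log2 value per array, in which a difference of 1 is a 2-fold difference in signal. Probes differ in brightness, so a gene is compared with itself over time and its level is not set against that of another receptor. The deposited values carry no call of presence, so a limit was taken from 1203 genes for odorant, vomeronasal and taste receptors, which work in sensory epithelia: on each array, 95% of these genes lay below it. The limit was 6.97 and 7.16 on the arrays of 0 DIV (replicate 1 first, here and throughout) and between 6.43 and 6.93 on the later ones, a fall of 0.41 from the mean at 0 DIV to the mean at 15 DIV. A receptor was counted as above background at a time when both arrays exceeded their limits. Because 986 of the 1203 genes rest on a single probeset, while most receptors combine several, the limit is an approximate one.

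By this measure 9 receptor genes were above background at 0 DIV, 21 at 1 DIV, 19 at 3 DIV, 20 at 6 DIV, 18 at 12 DIV and 21 at 15 DIV. These counts rest on limits that were lower after 0 DIV (6.66 and 6.80 at 1 DIV, 6.97 and 7.16 at 0 DIV). From 0 to 1 DIV the median change of the receptors was -0.07 (all genes: 0.05). *Adra2c* did not pass on both arrays at 0 DIV (7.05 and 6.97) but did at 6 DIV with lower values (6.96 and 6.87). Of all genes, 52.4% were above background at 0 DIV, 58.6% at 1 DIV, 57.5% at 3 DIV, 59.5% at 6 DIV, 57.9% at 12 DIV and 62% at 15 DIV. At the other end, 5 receptor genes were above it at every time (all genes: 48%): *Chrm1*, *Chrna7*, *Chrnb2*, *Htr4* and *Htr5a*. At no time were 16 receptor genes above it (all genes: 33.9%). The silent group held 8 nicotinic subunits, namely *Chrna1* (of muscle), *Chrna2*, *Chrna6*, *Chrna9*, *Chrna10*, *Chrnb3*, *Chrnd* and *Chrne*, together with *Chrm5*, *Htr1d*, *Htr1f*, *Htr2b*, *Htr3b*, *Drd2*, *Drd5* and *Adra1b*. The remaining 21 passed the limit at 1 to 5 of the 6 times. The split depends on where the limit is set: with the 90th percentile, 17 receptors passed at 0 DIV and 12 at every time, and with the 99th percentile, 2 passed at 0 DIV, 13 at 15 DIV and 1 at every time, while 28 passed at none. With 101 keratin genes in place of the sensory receptors, 1 passed at 0 DIV, 7 at 15 DIV and 1 at every time, and 35 at none.

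**Figure D1:**
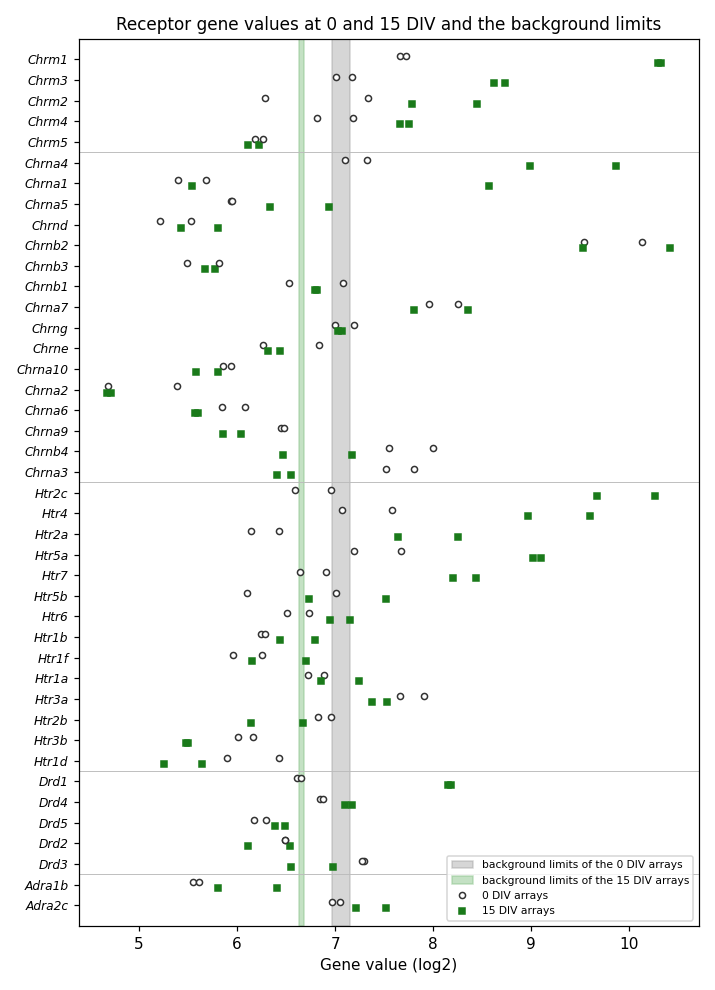
Log2 value of each of the 42 receptor genes (rows, grouped by family) on the 2 arrays of 0 DIV (open circles) and the 2 arrays of 15 DIV (green squares), with bands that span the background limits of the arrays of each time. *Chrm1*, *Htr2c*, *Htr4*, *Htr5a* and *Chrna4* lie far to the right of the green band at 15 DIV, whereas *Chrna2*, *Chrnd*, *Chrnb3* and *Chrna6* lie to the left of both bands on all 4 arrays.

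Which receptors changed was asked with limma, fitted to all 20358 genes with a level for each time and a block for the replicate. Every adjusted p given is limma's after Benjamini-Hochberg correction over the full set of genes, and calls were made at 0.05. An F test over the 6 times called 14 receptor genes (all genes: 22%). At 15 DIV against 0 DIV, 11 receptors were higher (all genes: 16.4%) and 3 were lower (all genes: 8.43%), and the median change was 0.24 over the receptors and 0.01 over all genes. The number of receptors that were higher grew with time in culture, with 1 at 1 DIV (all genes: 0.766%), 5 at 3 DIV (4.7%), 10 at 6 DIV (9.88%) and 11 at 12 DIV (15.9%). Lower were 1 at 1 DIV (0.28%), 2 at 3 DIV (1.41%), 3 at 6 DIV (3.85%) and 4 at 12 DIV (8.94%). All these comparisons share the arrays of 0 DIV. Without the replicate block, 11 receptors were higher and 0 lower at 15 DIV, and 1 was lower at 12 DIV and 0 at 1, 3 and 6 DIV. The 11 genes called higher at 12 DIV were the same 11 as at 15 DIV: *Htr2c*, *Chrm1*, *Chrna4*, *Htr4*, *Htr2a*, *Htr5a*, *Chrm3*, *Htr7*, *Drd1*, *Chrm2* and *Chrm4*. The first 9 of these kept their call at 15 DIV under every alternative that kept both arrays of each time used. The sizes given here rest on the probesets of each gene that varied most. With all probesets these 9 rises were smaller: 2.58 for *Htr2c*, 1.86 for *Chrm1*, 1.64 for *Chrna4*, 1.52 for *Htr4* and 1.29 for *Htr2a*. They were 1.36 for *Htr5a*, 1.15 for *Chrm3*, 1.24 for *Htr7* and 0.75 for *Drd1*.

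By family, 4 of 5 muscarinic receptors rose at 15 DIV (all genes: 16.4% higher and 8.43% lower). Of 14 serotonin receptors 5 rose and 1 fell, and of 16 nicotinic subunits 1 rose and 2 fell. Of 5 dopamine receptors 1 rose, and neither adrenergic receptor was called. The receptors were also grouped by the protein they signal through, after the values were seen. In this grouping 4 of 7 receptors of the Gq class rose, 3 of 5 of the Gs class, 3 of 11 of the Gi class with 1 lower, and 1 of 18 ion channel subunits with 2 lower. The median change was 1.58 for the Gq class, 1.54 for the Gs class, 0.32 for the Gi class and -0.11 for the channel subunits (all genes: 0.01). These groups are small, and differences between them or from all genes were not tested. *Htr5b* was put in no class. In RNA from whole cultures, more cells of a type and more RNA per cell cannot be told apart.

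**Figure D2:**
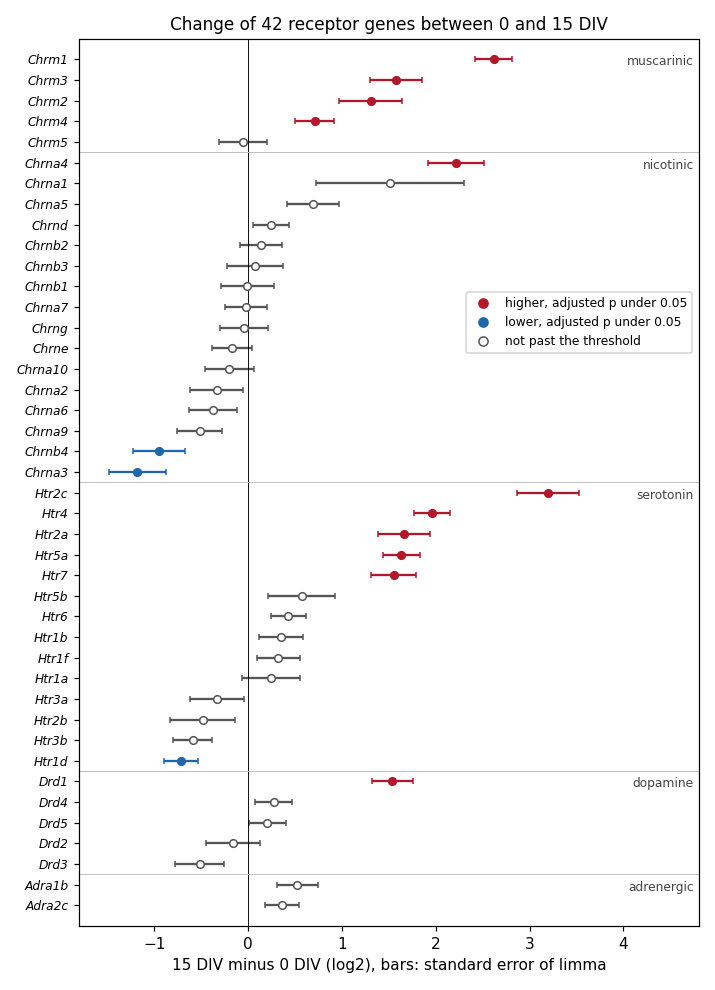
Difference between 15 and 0 DIV on the log2 scale for the 42 receptor genes, ordered within each family, with the standard error from limma as a bar. Filled red points are the 11 genes that were higher and filled blue points the 3 that were lower at an adjusted p under 0.05. The muscarinic genes lie to the right of 0 apart from *Chrm5*, while most nicotinic subunits cluster around 0.

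The promoters of 4 called genes are shown, to place sequence beside both directions of change: 3 that rose (*Htr2a*, *Drd1* and *Chrm4*) and 1 that fell (*Chrna3*). The entry used for each of the 4 lies at the outermost start of transcription annotated for the gene. Each stretch is the 250 bases before that start, from the RefSeq annotation of the mouse genome build GRCm38.p6. Capitals mark the GC box, GGGCGG on either strand, at which factors of the Sp family can bind. *Htr2a* lies on the plus strand (chr14:74640624-74640873), *Drd1* on the minus strand (chr13:54055659-54055908), *Chrm4* on the plus strand (chr2:91921939-91922188) and *Chrna3* on the minus strand (chr9:55026563-55026812), and all are written 5′ to 3′ along the gene.
Htr2a: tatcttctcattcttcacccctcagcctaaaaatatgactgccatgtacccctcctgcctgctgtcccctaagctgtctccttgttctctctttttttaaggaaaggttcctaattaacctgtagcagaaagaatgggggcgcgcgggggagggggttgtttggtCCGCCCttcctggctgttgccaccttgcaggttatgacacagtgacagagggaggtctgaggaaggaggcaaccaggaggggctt
Drd1: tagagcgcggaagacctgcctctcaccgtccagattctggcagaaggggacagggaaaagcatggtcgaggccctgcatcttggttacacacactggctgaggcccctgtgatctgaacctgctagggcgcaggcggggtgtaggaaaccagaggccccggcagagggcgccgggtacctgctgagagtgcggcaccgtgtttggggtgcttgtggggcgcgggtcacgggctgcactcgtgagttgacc
Chrm4: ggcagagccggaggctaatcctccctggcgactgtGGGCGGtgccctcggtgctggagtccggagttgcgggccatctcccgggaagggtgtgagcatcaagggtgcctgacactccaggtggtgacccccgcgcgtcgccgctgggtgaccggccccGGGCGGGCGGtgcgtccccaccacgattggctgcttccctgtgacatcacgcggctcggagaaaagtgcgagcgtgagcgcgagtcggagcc
Chrna3: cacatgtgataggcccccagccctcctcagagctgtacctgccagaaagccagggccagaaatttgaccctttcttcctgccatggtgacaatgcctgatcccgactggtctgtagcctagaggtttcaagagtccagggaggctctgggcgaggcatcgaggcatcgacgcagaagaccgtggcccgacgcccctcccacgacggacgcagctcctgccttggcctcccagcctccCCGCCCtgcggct
The last pair of GC boxes of *Chrm4* overlap, and its 3 boxes begin between 215 and 88 bases before the start. The box of *Htr2a* begins 85 bases before the start and that of *Chrna3* 13 bases before it, and *Drd1* has none. The stretches hold 70% G and C in *Chrm4*, 64% in *Drd1*, 63.2% in *Chrna3* and 52.8% in *Htr2a*. Among the 34 receptor genes with an entry, which have 39 promoters, 17 promoters held a GC box, against 32.7% of all 32851 promoters searched over the same length. The TATA box (TATAAA) was in 1 of 39 against 12.4%, the E box (CANNTG) in 22 against 66.2% and the core of the cyclic AMP response element (TGACG) in 4 against 17.8%, each searched on both strands. These matches are descriptions of the letters, and matches of different motifs were counted without regard to overlap.

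Of the 5 muscarinic receptors, 4 rose, by 0.71 to 2.62 on the log2 scale, and all 4 were called at 12 and at 15 DIV. *Chrm1*, the main muscarinic receptor of forebrain pyramidal cells, read 7.66 and 7.72 (0 DIV), 7.44 and 7.44 (1 DIV), 7.70 and 7.21 (3 DIV), 8.53 and 8.46 (6 DIV), 9.58 and 9.78 (12 DIV) and 10.32 and 10.29 (15 DIV). Both arrays of 12 and 15 DIV lay above every earlier array, and the 2 replicates lay close together at those times. The rise at 15 DIV was 2.62 (standard error 0.20, adjusted p = 1.55e-05) by limma, 6.13-fold. With all probesets the rise was 1.86. It was reached late. The 4 arrays of 1 and 3 DIV did not exceed 7.72, the higher value of 0 DIV. Against 0 DIV, 6 DIV was higher by 0.80 (standard error 0.20, adjusted p = 0.0232), and 15 DIV exceeded 6 DIV by 1.81 (standard error 0.20, adjusted p = 0.00537). The comparison of 15 with 6 DIV was added after the data were seen. It called 2 receptors higher, *Chrm1* and *Htr4* (all genes: 1.08%), and none lower (all genes: 0.255%). Its call for *Chrm1* was lost without any one of 3 arrays, namely 6 DIV replicate 1 (1.82, adjusted p = 0.0590), 6 DIV replicate 2 (1.81, adjusted p = 0.0920) and 15 DIV replicate 1 (1.83, adjusted p = 0.0675).

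*Chrm3*, also linked to Gq, was called higher at 3, 12 and 15 DIV. It read 7.18 and 7.01 (0 DIV), 7.88 and 8.49 (1 DIV), 8.06 and 8.51 (3 DIV), 7.60 and 7.81 (6 DIV), 8.62 and 7.99 (12 DIV) and 8.73 and 8.62 (15 DIV). All later arrays exceeded those of 0 DIV, and the 6 DIV arrays were the lowest of these. Against 0 DIV it was higher at 3 DIV by 1.19 (standard error 0.28, adjusted p = 0.0323) and at 15 DIV by 1.58 (standard error 0.28, adjusted p = 0.00185) with limma, at least 2.84-fold, where the bound takes the background limit for arrays that did not exceed it. At 6 DIV the difference was 0.61 (standard error 0.28, adjusted p = 0.177).

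*Chrm2*, the Gi-linked receptor that acts as an autoreceptor on many cholinergic terminals, read 6.28 and 7.34 (0 DIV), 7.62 and 7.70 (1 DIV), 8.53 and 7.90 (3 DIV), 8.03 and 8.09 (6 DIV), 7.76 and 8.42 (12 DIV) and 7.78 and 8.45 (15 DIV). It is measured by a single probeset, and its 2 arrays of 0 DIV differed by more than those of any other time. The difference at 15 DIV was 1.31 (standard error 0.33, adjusted p = 0.0154) by limma, at least 1.95-fold, and at 3 DIV it was 1.41 (standard error 0.33, adjusted p = 0.0354). Both arrays of 0 DIV were below all others. The call at 15 DIV was lost without 0 DIV replicate 1 (0.86, adjusted p = 0.176) and without 15 DIV replicate 2 (1.10, adjusted p = 0.119).

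*Chrm4*, the other Gi-linked member, rests on a single probeset too and overlaps the gene *Mdk*. Its values were 7.18 and 6.81 (0 DIV), 7.12 and 7.04 (1 DIV), 6.92 and 7.28 (3 DIV), 7.59 and 7.79 (6 DIV), 7.59 and 7.82 (12 DIV) and 7.66 and 7.75 (15 DIV). The arrays of 6, 12 and 15 DIV all lay above those of 0 DIV. The difference was 0.71 (standard error 0.21, adjusted p = 0.0292) at 15 DIV by limma, at least 1.45-fold. That call did not hold when each array was centred on its median (0.55, adjusted p = 0.0862) or quantile normalized (0.61, adjusted p = 0.0551). It was lost too without 0 DIV replicate 2 (0.45, adjusted p = 0.237), 15 DIV replicate 1 (0.72, adjusted p = 0.133) and 15 DIV replicate 2 (0.70, adjusted p = 0.122).

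*Chrm5*, the Gq-linked member known from dopamine neurons of the midbrain, followed a course unlike that of the other muscarinic receptors. It exceeded the background limit on 1 of 12 arrays, 12 DIV replicate 1. It read 6.19 and 6.26 (0 DIV), 5.25 and 5.71 (1 DIV), 5.11 and 5.35 (3 DIV), 5.33 and 5.32 (6 DIV), 7.30 and 6.58 (12 DIV) and 6.22 and 6.11 (15 DIV). Both arrays of 12 DIV were above all others, and those of 3 and 6 DIV were below those of 0 DIV. The F test called it (adjusted p = 0.00333 by limma). Against 0 DIV it changed by -0.99 (standard error 0.26, adjusted p = 0.0469) at 3 DIV and -0.90 (standard error 0.26, adjusted p = 0.0417) at 6 DIV, while the change at 15 DIV was -0.06 (standard error 0.26, adjusted p = 0.898). In the contrast of the mean of 3 and 6 DIV with the mean of 0 and 15 DIV, no receptor was higher (all genes: 0.948%) and 2 were lower (all genes: 0.658%). The differences were, for *Chrm5*, -0.92 (standard error 0.18, adjusted p = 0.0386) and, for *Chrm1*, whose highest values came at 12 and 15 DIV, -1.03 (standard error 0.14, adjusted p = 0.0147). Leaving out 1 array at a time ended the call at 3 DIV for 10 of the 12 arrays, at 6 DIV for 6 and in the transient contrast for 10. All 3 calls were lost without the replicate block (adjusted p = 0.0749, 0.0594 and 0.0659). All of these *Chrm5* values lie near or under the limit, and the gene overlaps *Aven*.

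Of the 16 nicotinic subunits, which assemble into channels in several combinations, 1 was higher at 15 DIV. *Chrna4*, which pairs with *Chrnb2* in the main high-affinity nicotine receptor of the brain, read 7.33 and 7.10 (0 DIV), 7.35 and 7.31 (1 DIV), 8.38 and 8.38 (3 DIV), 9.37 and 8.76 (6 DIV), 9.85 and 9.46 (12 DIV) and 8.99 and 9.87 (15 DIV). Every array from 3 DIV on was above every array of 0 and 1 DIV, and 9 of 9 probesets of the gene were higher at 15 DIV in both replicates. At 15 DIV the difference was 2.21 (standard error 0.30, adjusted p = 0.000383) by limma, at least 4.55-fold. At 0 DIV 1 of the 2 arrays was above its background limit. Its partner *Chrnb2* read 9.54 and 10.13 (0 DIV), 10.14 and 10.08 (1 DIV), 9.68 and 10.18 (3 DIV), 9.56 and 9.92 (6 DIV), 9.60 and 10.15 (12 DIV) and 9.53 and 10.42 (15 DIV). It was above background on all 12 arrays, between 9.53 and 10.42, and it overlaps the gene *Adar*. The arrays of 0 and 15 DIV overlapped, and the change was 0.14 (standard error 0.22, adjusted p = 0.697), with a sign that turned under quantile normalization (-0.10) and centring (-0.02). *Chrna7*, which forms a calcium-permeable channel of 1 kind of subunit, read 7.96 and 8.25 (0 DIV), 7.71 and 8.05 (1 DIV), 7.51 and 8.26 (3 DIV), 7.17 and 7.87 (6 DIV), 7.02 and 8.21 (12 DIV) and 7.80 and 8.36 (15 DIV). It too was above background on all arrays, and replicate 2 was above replicate 1 at every time. The arrays of 0 and 15 DIV overlapped, and the change was -0.02 (standard error 0.23, adjusted p = 0.955), with a sign that turned when all probesets were used (0.05). A change that does not pass the test does not show that these genes were constant.

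*Chrna3* and *Chrnb4*, which together form the main receptor of autonomic ganglia and of the medial habenula, were lower at the end. *Chrna3* read 7.80 and 7.51 (0 DIV), 8.29 and 7.95 (1 DIV), 7.60 and 7.05 (3 DIV), 7.49 and 6.03 (6 DIV), 7.65 and 6.48 (12 DIV) and 6.55 and 6.40 (15 DIV). The 2 arrays of 15 DIV were below those of 0, 1 and 3 DIV, but replicate 1 still read 7.65 at 12 DIV whereas replicate 2 had come down to 6.03 by 6 DIV. The change at 15 DIV was -1.18 (standard error 0.30, adjusted p = 0.0162) by limma, at least 2.01-fold lower, and 9 of 9 probesets were lower in both replicates. *Chrnb4* read 7.55 and 7.99 (0 DIV), 6.99 and 7.45 (1 DIV), 6.43 and 7.28 (3 DIV), 7.20 and 7.05 (6 DIV), 7.06 and 6.77 (12 DIV) and 6.47 and 7.18 (15 DIV). Its arrays of 15 DIV lay below those of 0 DIV, though replicate 2 at 15 DIV lay between its values of 3 and 6 DIV. The change was -0.95 (standard error 0.28, adjusted p = 0.0284), at least 1.83-fold lower, with 8 of 8 probesets lower in both replicates. Without the replicate block both calls were lost (adjusted p = 0.103 for *Chrna3* and 0.0699 for *Chrnb4*), and with all probesets *Chrnb4* changed by -0.36 (adjusted p = 0.0823).

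The calls of these falls were also lost in some fits without 1 array. Such a fit leaves a time with a lone array, so a lost call does not show that the missing array decided the fall. *Chrna3* did not pass without 0 DIV replicate 2 (-0.96, adjusted p = 0.126) or 15 DIV replicate 1 (-0.88, adjusted p = 0.178). *Chrnb4* did not pass without 0 DIV replicate 1 (-1.02, adjusted p = 0.104), 0 DIV replicate 2 (-0.89, adjusted p = 0.133) or 15 DIV replicate 1 (-0.73, adjusted p = 0.236). Markers of 2 groups of other cells were lower at 15 DIV too, where 8.43% of all genes were lower. Those of endothelial and mural cells were lower for 7 of 8 (mean value 7.39 and 7.37 at 0 DIV, 6.30 and 6.23 at 15 DIV). Those of microglia were lower for 4 of 8 (7.29 and 7.37 at 0 DIV, 6.54 and 6.60 at 15 DIV). At 1 DIV the endothelial and mural mean was 6.32 and 6.37 and the microglial mean 6.93 and 6.67. *Chrna3* then read 8.29 and 7.95 (7.80 and 7.51 at 0 DIV). *Chrnb4* read 6.99 and 7.45 (7.55 and 7.99 at 0 DIV). The part of these cells in the change of the 2 subunits was not tested.

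*Chrna5*, an accessory subunit whose gene lies beside *Chrna3* and overlaps it, was higher in the middle of the series. It read 5.94 and 5.95 (0 DIV), 6.36 and 6.63 (1 DIV), 7.38 and 6.66 (3 DIV), 7.28 and 6.98 (6 DIV), 6.70 and 6.63 (12 DIV) and 6.33 and 6.94 (15 DIV). Both arrays of 0 DIV were below all others, and the highest value was that of 3 DIV replicate 1. The difference from 0 DIV was 1.08 (standard error 0.28, adjusted p = 0.0463) at 3 DIV, 1.19 (standard error 0.28, adjusted p = 0.0176) at 6 DIV and 0.69 (standard error 0.28, adjusted p = 0.0948) at 15 DIV by limma. Since neither array of 0 DIV was above background, the bound at 6 DIV, where both arrays passed the limit, is at least 1.04-fold, and at 3 DIV 1 of 2 arrays passed it. Leaving out 1 array at a time ended the call at 3 DIV for 7 arrays and at 6 DIV for 4. Over all 12 such fits the differences ran from 0.66 to 1.496 and from 1.03 to 1.34. Whether the labelling kept strands apart is not given in the sources used here, so signal from *Chrna3* and *Chrna5* cannot be separated where they overlap. Its call at 3 DIV was also lost without the replicate block (adjusted p = 0.0722) and with centring (0.98, adjusted p = 0.0635).

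**Figure D3:**
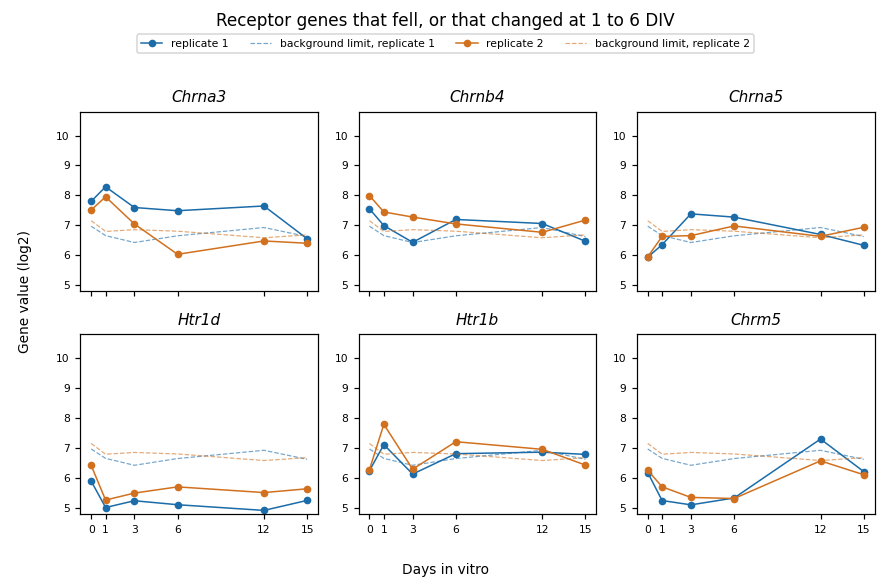
Log2 values over days in vitro for 6 receptor genes that were lower at 15 DIV or were called at an earlier time, with replicate 1 in blue, replicate 2 in orange and the background limit of each array as a broken line. *Chrna3* and *Chrnb4* start above the limit. At 15 DIV *Chrna3* is below it on both arrays and *Chrnb4* on replicate 1. *Chrna5* is above it on both arrays at 6 DIV and on 1 array at 3, 12 and 15 DIV. *Htr1b* peaks at 1 DIV, and *Htr1d* and most values of *Chrm5* lie below the limit.

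The other 10 nicotinic subunits had no call at any time. *Chrnb1* (of the muscle receptor) and *Chrng* (its fetal subunit) each passed the background limit at 3 of the 6 times, with values between 5.90 and 7.29 and between 6.09 and 7.23. The 5 neuronal or sensory subunits *Chrna2*, *Chrna6*, *Chrna9*, *Chrna10* and *Chrnb3* were above the limit on no array, as was the muscle subunit *Chrnd*, and *Chrne* and the muscle subunit *Chrna1* were above it on 1 array each.

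The serotonin receptors held the largest rise. *Htr2c*, a Gq-linked receptor abundant in choroid plexus and in parts of the limbic system, read 6.59 and 6.96 (0 DIV), 6.87 and 7.87 (1 DIV), 7.74 and 7.72 (3 DIV), 8.34 and 9.12 (6 DIV), 10.11 and 10.04 (12 DIV) and 10.26 and 9.67 (15 DIV). The values climbed at each step in replicate 1, and both arrays of 12 and 15 DIV exceeded all earlier arrays. At 15 DIV the difference was 3.19 (standard error 0.33, adjusted p = 7.44e-05) by limma, at least 7.49-fold, since neither array of 0 DIV was above background. All of its 7 probesets were higher in both replicates. *Htr2a*, the related receptor on which classical psychedelics act, read 6.43 and 6.14 (0 DIV), 7.004 and 6.986 (1 DIV), 6.95 and 7.15 (3 DIV), 7.23 and 7.85 (6 DIV), 8.07 and 8.48 (12 DIV) and 8.25 and 7.64 (15 DIV). Both arrays of 0 DIV lay below the limit and below all others, and the 15 DIV difference was 1.66 (standard error 0.28, adjusted p = 0.00136), at least 1.84-fold. The third member, *Htr2b*, was above background at no time and had no call.

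The Gs-linked receptors *Htr4* and *Htr7* both rose. *Htr4*, which is above background throughout, read 7.07 and 7.58 (0 DIV), 7.12 and 7.40 (1 DIV), 7.33 and 7.54 (3 DIV), 7.94 and 8.35 (6 DIV), 9.16 and 9.24 (12 DIV) and 8.97 and 9.60 (15 DIV). The 12 and 15 DIV arrays lay above all earlier ones, with a difference of 1.96 (standard error 0.19, adjusted p = 5.63e-05) by limma, 3.88-fold. The level at 15 DIV was higher than at 6 DIV by 1.14 (standard error 0.19, adjusted p = 0.024). That last call was lost without the replicate block (adjusted p = 0.125) and without any one of the arrays of 6 DIV replicate 1 (1.10, adjusted p = 0.197), 6 DIV replicate 2 (1.17, adjusted p = 0.219), 15 DIV replicate 1 (1.30, adjusted p = 0.0976) and 15 DIV replicate 2 (0.97, adjusted p = 0.156). *Htr7* read 6.64 and 6.91 (0 DIV), 7.29 and 7.24 (1 DIV), 7.95 and 7.49 (3 DIV), 8.20 and 8.30 (6 DIV), 7.95 and 8.59 (12 DIV) and 8.21 and 8.44 (15 DIV). It had reached its later range by 6 DIV, where the 2 arrays were already above all those of 0, 1 and 3 DIV. The difference was 0.95 (standard error 0.24, adjusted p = 0.0466) at 3 DIV and 1.55 (standard error 0.24, adjusted p = 0.000993) at 15 DIV, at least 2.39-fold. The third Gs-linked member, *Htr6*, was higher by 0.43 (standard error 0.18, adjusted p = 0.122) at 15 DIV, which did not pass.

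*Htr5a*, a Gi-linked receptor of forebrain neurons, read 7.19 and 7.67 (0 DIV), 7.71 and 7.67 (1 DIV), 7.85 and 7.77 (3 DIV), 8.30 and 8.54 (6 DIV), 8.95 and 9.31 (12 DIV) and 9.02 and 9.10 (15 DIV). Its arrays from 6 DIV on were above all earlier ones, 4 of 4 probesets were higher in both replicates, and the difference was 1.63 (standard error 0.20, adjusted p = 0.000193) by limma, 3.1-fold. The related *Htr5b*, with 0.57 (standard error 0.35, adjusted p = 0.28), did not pass, and its 2 arrays of 0 DIV (6.10 and 7.01) overlapped those of 15 DIV (7.52 and 6.73).

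None of the Gi-linked receptors of the Htr1 group was called higher at 15 DIV. *Htr1b*, a terminal autoreceptor, read 6.25 and 6.28 (0 DIV), 7.12 and 7.79 (1 DIV), 6.13 and 6.30 (3 DIV), 6.82 and 7.21 (6 DIV), 6.87 and 6.96 (12 DIV) and 6.79 and 6.43 (15 DIV). It stood above 0 DIV at 1 DIV by 1.19 (standard error 0.24, adjusted p = 0.0445) by limma, at least 1.31-fold. At 3 DIV it was back near its values of 0 DIV. The F test called it (adjusted p = 0.0156), but not when both of its probesets were used (adjusted p = 0.0671). The values given here rest on 1 of the 2. The call at 1 DIV was lost for 8 of the 12 arrays when 1 was left out, with differences from 0.89 to 1.498. It was also lost without the replicate block (adjusted p = 0.0920), with all probesets (0.64, adjusted p = 0.123) and with centring (1.11, adjusted p = 0.0724). *Htr1d*, which was at background on every array, read 5.90 and 6.42 (0 DIV), 5.02 and 5.27 (1 DIV), 5.24 and 5.50 (3 DIV), 5.11 and 5.71 (6 DIV), 4.92 and 5.52 (12 DIV) and 5.25 and 5.64 (15 DIV). The arrays of 0 DIV were above the other 10. The gene was called lower at all 5 later times, from -1.02 (standard error 0.18, adjusted p = 0.0294) at 1 DIV to -0.71 (standard error 0.18, adjusted p = 0.0152) at 15 DIV. Without the replicate block (adjusted p = 0.130) and with all probesets (-0.42, adjusted p = 0.105) it did not pass at 15 DIV. Nor did it without any one of the 4 arrays of 0 and 15 DIV (-0.77 to -0.66). The sensory receptor genes that set the background shifted in the same direction, with a median change of -0.29 at 15 DIV. Of these 1203, 59 were called lower and 0 higher by limma. *Htr1a*, the somatodendritic receptor typical of hippocampal pyramidal cells, was above background at 4 of 6 times with a change of 0.24 (standard error 0.31, adjusted p = 0.615), and *Htr1f* changed by 0.32 (standard error 0.23, adjusted p = 0.343).

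The channel subunits *Htr3a*, found on certain interneurons, and *Htr3b* had 1 call each, both lower. *Htr3a* was above background at 3 of 6 times and changed by -1.01 (standard error 0.28, adjusted p = 0.0393) at 6 DIV by limma. At 15 DIV its change was -0.33 (standard error 0.28, adjusted p = 0.443). *Htr3b*, never above background, was called lower at 12 DIV, with -0.65 (standard error 0.21, adjusted p = 0.0446). Leaving out 1 array at a time ended the first call for 9 arrays and the second for 11. Over all 12 such fits the differences ran from -1.51 to -0.52 and from -0.91 to -0.38. Without the replicate block neither call passed (adjusted p = 0.0858 and 0.0692).

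**Figure D4:**
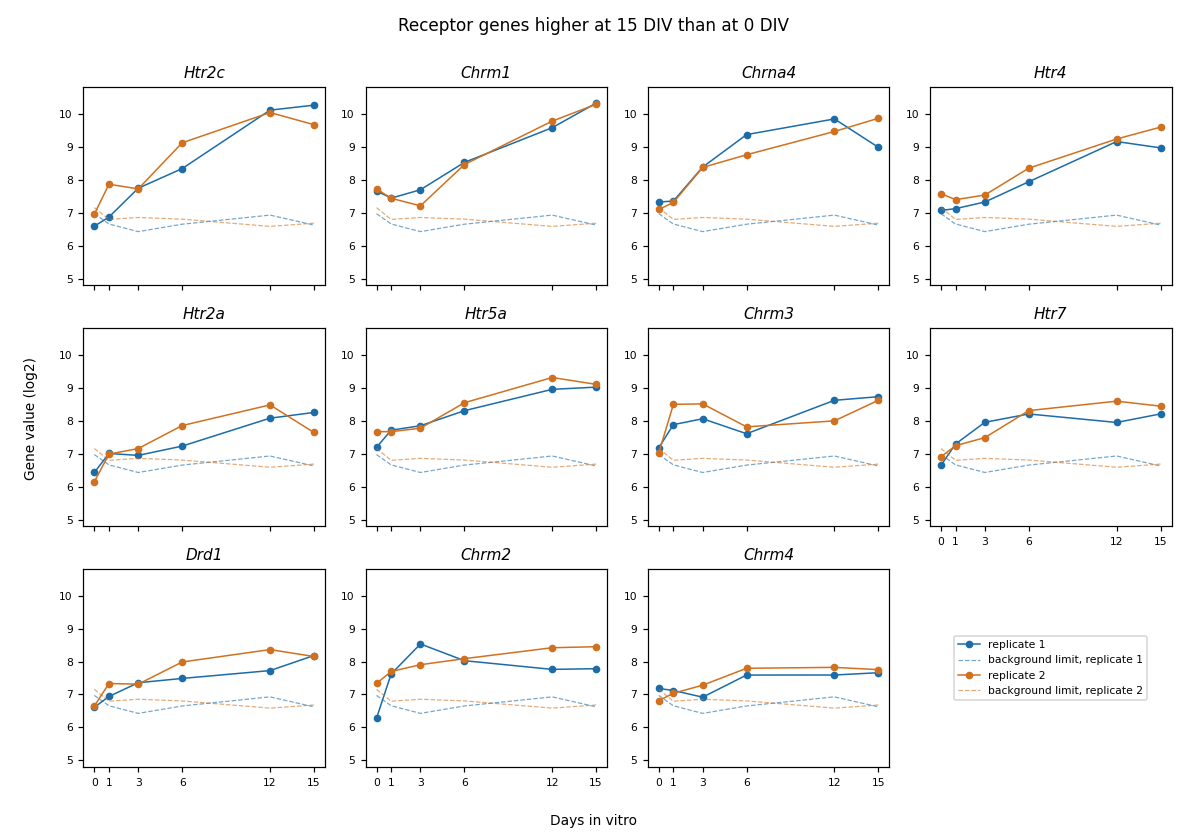
Log2 values over days in vitro for the 11 receptor genes that were higher at 15 DIV, largest change first, with replicate 1 in blue, replicate 2 in orange and the background limit of each array as a broken line. *Htr2c* and *Chrna4* start at the limit and climb from 3 DIV, *Chrm1* and *Htr4* climb after 3 DIV, and *Chrm3*, *Chrm2* and *Htr7* are near their later range by 3 or 6 DIV.

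Of the dopamine receptors, *Drd1*, the Gs-linked receptor of striatal projection neurons and of granule cells of the dentate gyrus, was the one that rose. It read 6.61 and 6.65 (0 DIV), 6.94 and 7.33 (1 DIV), 7.36 and 7.31 (3 DIV), 7.49 and 7.99 (6 DIV), 7.72 and 8.36 (12 DIV) and 8.18 and 8.15 (15 DIV). Both arrays of 0 DIV were under their limits, every array from 1 DIV on was above its own, and the arrays of 15 DIV exceeded those of 0, 1 and 3 DIV. The difference was 1.54 (standard error 0.22, adjusted p = 0.00053) by limma, at least 2.15-fold. It rests on 1 of the 2 probesets of the gene, since the probeset with the smaller spread was left out. The second probeset changed by -0.03, and with both the difference was 0.75, which also passed. *Drd5*, the other Gs-linked member, was above background on no array, with a change of 0.20 (standard error 0.19, adjusted p = 0.49). *Drd2* exceeded its limit on 1 array and changed by -0.16 (standard error 0.29, adjusted p = 0.734). *Drd3* was called lower at 12 DIV, with -0.82 (standard error 0.26, adjusted p = 0.0401), but not at 15 DIV, with -0.52 (standard error 0.26, adjusted p = 0.176). The call at 12 DIV was lost for 6 of the 12 arrays when 1 was left out and without the replicate block (adjusted p = 0.128). Over all 12 fits without 1 array the difference ran from -1.08 to -0.55. *Drd4* was above background at 4 of 6 times and changed by 0.27 (standard error 0.20, adjusted p = 0.35).

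Neither adrenergic receptor in the table was called. *Adra2c*, a Gi-linked autoreceptor, was above background at 4 of 6 times and read 7.05 and 6.97 (0 DIV), 7.04 and 7.26 (1 DIV), 6.67 and 6.86 (3 DIV), 6.96 and 6.87 (6 DIV), 7.09 and 7.18 (12 DIV) and 7.21 and 7.52 (15 DIV). Its values lay between 6.67 and 7.52 with no overlap between 0 and 15 DIV, and the change was 0.36 (standard error 0.18, adjusted p = 0.186) by limma. *Adra1b*, linked to Gq, was under the limit on all arrays and changed by 0.52 (standard error 0.22, adjusted p = 0.11).

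A linear slope over the hours in culture called 11 receptors with rising values (all genes: 17.4%) and 1 with falling values (all genes: 12.5%). The steepest were *Htr2c*, with 0.22 per day on the log2 scale (adjusted p = 4.40e-06), *Chrm1*, with 0.20 per day (adjusted p = 1.17e-06), *Chrna4*, with 0.16 per day (adjusted p = 0.000186), and *Htr4*, with 0.15 per day (adjusted p = 1.25e-06). The falling gene was *Chrna3*, with -0.08 per day (adjusted p = 0.00712). *Chrm2*, which reached its later values by 3 DIV, was not called by the slope (adjusted p = 0.114), whereas *Drd5*, at background throughout, was (0.03 per day, adjusted p = 0.0491). The slope of *Chrm3* passed at an adjusted p of 0.0495.

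The genes that make, carry and break down the transmitters lay mostly at background. Of 22 measured in a list of 23, 14 were above background at no time (all genes: 33.9%). Among the 14 were *Tph2* (the enzyme of serotonin neurons), *Dbh* (which makes noradrenaline), *Chat* (which makes acetylcholine) and *Slc6a3* (the dopamine transporter). At 15 DIV, 4 of the 22 were higher and 1 lower, where 16.4% of all genes were higher and 8.43% lower. The 4 higher genes were *Ache*, which splits acetylcholine, by 3.92 (standard error 0.25, adjusted p = 7.33e-06), *Maob*, a monoamine oxidase of glia, by 1.56, the esterase *Bche* by 1.17 and *Dbh* by 0.66. Of these, *Maob* and *Dbh* were above background at no time. *Tph1*, also at background, fell by 0.71. Of 9 markers of monoaminergic and cholinergic neurons, 6 were above background at no time (all genes: 33.9%). *Slc18a3* passed the limit at 3 times and *Th* and *Slc6a4* at 1, and the mean value of the list lay between 5.65 and 6.32 over the arrays.

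Of 16 genes for proteins that help nicotinic receptors assemble or cluster or that tune them, 5 were higher (all genes: 16.4%) and 1 lower (8.43%) at 15 DIV by limma, beside 1 higher and 2 lower among the 16 subunits. The difference between these counts was not tested. *Vsnl1*, a calcium sensor that raises the surface level of receptors with *Chrna4*, rose by 4.83 (standard error 0.29, adjusted p = 6.28e-06), *Lynx1*, a membrane-bound toxin-like brake on these receptors, by 4.20 (standard error 0.25, adjusted p = 6.28e-06), *Lypd1*, of the same family, by 3.28 and *Ric3*, a chaperone, by 0.75. *Agrn*, the clustering factor of the muscle synapse, fell by 0.65.

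Downstream of the receptors, 8 of 21 genes for G protein subunits, adenylyl cyclases and phospholipases C were higher (all genes: 16.4%) and 1 was lower (8.43%). The cyclases *Adcy2* (2.86, adjusted p = 4.62e-05), *Adcy8* (2.25, adjusted p = 0.00346) and *Adcy1* (1.84, adjusted p = 6.47e-05) and *Gnal*, a Gs-like subunit used by dopamine receptors in the striatum (2.49, adjusted p = 3.42e-05), led the list by limma, and *Gnai3* fell by 0.73. None of the 4 phospholipase C genes was called. Of 20 genes for desensitisation and dopamine signalling, 13 were higher (all genes: 16.4%) and 0 lower (8.43%), led by *Rgs4* (3.23), *Rgs7* (2.51), *Caly* (2.49) and *S100a10* (2.18). *Rgs4* and *Rgs7* speed the turn-off of G proteins, and *Caly* and *S100a10* bind dopamine and serotonin receptors.

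Marker genes of several cell types changed over the same period, in which 16.4% of all genes were higher and 8.43% lower at 15 DIV. Of 10 measured markers of excitatory hippocampal neurons, all were above background at some time, and 4 were higher (*Camk2a*, *Slc17a7*, *Grin1* and *Syn1*) and 5 lower (*Prox1*, *Tbr1*, *Zbtb20*, *Slc17a6* and *Neurod6*) at 15 DIV, with a mean value of 9.25 and 9.07 at 0 DIV and 9.38 and 9.71 at 15 DIV. Of 11 markers of GABAergic neurons, 7 were higher and 1, *Dlx1*, lower (mean value 8.83 and 8.63 at 0 DIV, 9.67 and 9.73 at 15 DIV). Astrocyte markers were higher for 6 of 9, with a mean value of 7.69 and 7.93 at 0 DIV and 10.20 and 9.55 at 15 DIV, and replicate 1 was above replicate 2 at 3 DIV (8.80 and 7.54), 6 DIV (9.69 and 8.55) and 12 DIV (10.29 and 9.16). Markers of the oligodendrocyte lineage were higher for 6 of 7 (7.03 and 6.94 at 0 DIV, 9.22 and 8.95 at 15 DIV). Of 6 fibroblast markers, *Dcn* (2.303) and *Pdgfra* (4.18), which is also in the oligodendrocyte list, were higher, while the list's median change was -0.17. The neuronal progenitor markers were lower for 3 of 6. The part of these shifts in the rises of the receptors was not tested.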

How the data were processed

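RNA from 12 cultures (25 ng of total RNA each, amplified) was hybridised to Affymetrix Mouse Gene 1.0 ST arrays. The deposited values are log2 signals of 241576 probesets, which the authors made by RMA in the oligo package (background correction, quantile normalization and probe summary, version not given in the sources used here). RMA narrows differences near background, and no depth or detection call comes with the values. A probeset was named only where the platform annotation gave 1 gene symbol (212138 probesets, against 4672 with several and 24766 with none), and 2743 symbols were updated. As in the study's methods, each gene was summarised by median polish over the 50% of its probesets that varied most (by interquartile range). The limma fit had a level for each time and a block for the replicate number, used in place of the methods' date of the experiment, which the labels do not give, with 5 residual degrees of freedom. Over the 15 pairs of times, arrays with the same replicate number deviated together (correlation 0.111 to 0.463, median 0.297). Beside each time against 0 DIV, a slope over hours and a contrast of the mean of 3 and 6 DIV with the mean of 0 and 15 DIV were tested. P-values were adjusted by Benjamini-Hochberg over all genes. They measure the spread left over the 12 arrays, 2 a time, once the times and the replicate block are fitted. A steady offset between the replicates is thus taken out. Array medians lay between 7.36 and 7.57. Where a receptor was above background at 1 of 2 times compared, the fold is a bound that takes, on each array of the dimmer time, the higher of the limit and the value.

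Values on every array were given for receptors past the F test or the 15 DIV test in the same direction in both replicates and for those above background at every time with no call. *Chrna5* and *Adra2c* were added after their values were seen. Of the other lists (transmitter synthesis and breakdown, nicotinic chaperones, G protein effectors and desensitisation), up to 4 of the largest called changes and any called the other way were named, and cell type markers were described by list. The receptors, lists and tests were chosen with earlier results of these data known. Alternatives were the fit without the block, all probesets, their mean, quantile normalization, centring, a signal filter, an intensity trend, leaving out each array, both 12 DIV arrays or all but 0 and 15 DIV, rank of time, and other background limits. R 4.3.3, limma 3.58.1, Python 3.11.15 and matplotlib 3.10.9 were used, and the fit was tested on simulated data.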

Additional observations from a re-analysis of the deposited data

How the results depend on the processing

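Of the 18 receptor genes given in full, *Chrna7* and *Chrnb2* had no call and were the ones whose difference between 15 and 0 DIV turned: *Chrna7* from -0.02 to 0.053 with all probesets and 0.048 with the mean of the chosen probesets (-0.23 to 0.18 when 1 array was left out), and *Chrnb2* from 0.14 to -0.10 with quantile normalization and -0.023 with centring (-0.11 to 0.39). Among counts of receptor genes, the following moved by over 1.5 times, and the cause was not tested. Without the replicate block, the counts were 1 lower in the transient contrast, 1 higher at 15 against 6 DIV, none called at 1 DIV (0 higher, 0 lower), a single one at 3 DIV (1 higher, 0 lower), 0 lower at 6 DIV, 1 lower at 12 DIV and 0 lower at 15 DIV, with 0 lower in the transmitter list and 3 higher and 0 lower in the nicotinic chaperone list. With all probesets, they were 2 with a falling slope, 4 lower in the transient contrast, none called at 1 DIV (0 higher, 0 lower), 3 higher at 3 DIV, 15 above background at 0 DIV and 12 at every time, with 2 higher and 0 lower in the transmitter list. With the mean of probesets, 2 were lower at 12 DIV and 2 in the transmitter list. Quantile normalization gave 3 falling slopes, 0 lower at 1 DIV, 3 higher but 0 lower at 3 DIV, 5 lower at 6 DIV, 2 lower in the transmitter list and 3 higher and 2 lower in the chaperone list. Centring gave 0 higher at 1 DIV, 1 in each direction at 3 DIV (1 higher, 1 lower), with 3 chaperones higher and 2 lower. The share of calls that were higher was 91.7% for the slope and 75% with quantile normalization, 71.4% at 3 DIV (100% with quantile normalization, 50% with centring) and 50% at 1 DIV (100% and 0%). Dropping the dimmest genes (the filter on mean signal), among them 16 receptor genes, gave 1 higher in the transient contrast, 0 lower at 1 DIV and 2 lower at 12 DIV, with 2 higher and 0 lower in the transmitter list, and an intensity trend gave 1 higher in the transient contrast. The 4 arrays of 0 and 15 DIV alone gave 2 lower in the transmitter list and 3 in the chaperone list, and the rank of time 2 falling slopes. Without both 12 DIV arrays, an alternative chosen after seeing the data, 2 were higher at 1 DIV and 5 lower at 3 DIV, with 2 lower in the transmitter and 2 in the chaperone list.

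Other background limits moved these counts. The 90th percentile gave 17 above background at 0 DIV and 12 at every time, the 99th gave 2 at 0 DIV, 13 at 15 DIV, 1 at every time and 28 at no time, 101 keratin genes as background gave 1, 7, 1 and 35, and sensory genes with 3 or more probesets (chosen after seeing the data) gave 3 at every time.

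When 1 array was left out at a time, which leaves a time with a lone array assumed to vary like the others, the F test called 10 to 20 receptors, the slope 9 to 12 rising and 1 to 2 falling, the transient contrast 0 to 1 higher and 0 to 3 lower, and 15 against 6 DIV 0 to 2 higher and 0 to 0 lower. Against 0 DIV, higher counts ran from 0 to 2 at 1 DIV, 0 to 6 at 3 DIV, 2 to 11 at 6 DIV, 9 to 13 at 12 DIV and 10 to 11 at 15 DIV, and lower counts from 0 to 1, 0 to 5, 0 to 3, 1 to 5 and 0 to 4. In the lists they ran from 1 to 5 and 0 to 2 (transmitters), 3 to 7 and 0 to 2 (chaperones), 8 to 8 and 0 to 1 (G proteins) and 9 to 13 and 0 to 0 (desensitisation). Above background were 9 to 15 receptors at 0 DIV, 21 to 24 at 15 DIV, 5 to 8 at every time and 13 to 16 at no time. With 2 arrays a time, small differences are beyond the precision of these arrays. In addition, *Chrm2*, *Chrm4*, *Drd1*, *Htr1b*, *Adra2c* and *Drd5* rest on 1 probeset each.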

Other observations

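Some receptors had a single array well above the other of its time. *Chrna1*, the muscle subunit, read 8.57 on 15 DIV replicate 1 and 5.54 on replicate 2, with 4.57 to 6.15 on the other 10 arrays, and 7 of its 12 probesets were higher at 15 than at 0 DIV in both replicates. None of the 6 skeletal muscle markers was called by limma at 15 DIV, and their mean value was 6.71 and 6.39 there against 6.20 and 6.38 at 0 DIV. On 12 DIV replicate 1, *Drd2* read 7.40 against 6.26 on replicate 2 and *Htr1a* 7.89 against 6.68, in both genes the highest value of the 12 arrays. *Chrm5* too had its highest value on that array (7.30 against 6.58). Over the times, the correlation over genes between the 2 arrays of a time was 0.944 at its lowest. These arrays were picked out after their values were seen, and no test was made.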
